A study of Homo sapiens with 6 samples.

Results

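The genes described here are 10 regulators that restrain or tune NF-kB signalling, NFKBIA, NFKBIB, NFKBIE, NFKBIZ, BCL3, TNFAIP3, TNIP1, TNIP2, CYLD and OTULIN. They were chosen by name, and each matched 1 of the 62710 genes in the deposited count table. The counts come from mRNA sequencing of A549, an established line from a human lung adenocarcinoma, with 3 libraries in each of 2 groups. PS-MP cells received polystyrene microplastics, labelled as 20 mg/mL, and were collected after 48 h, while control cells were labelled as untreated. The dose is printed as labelled, and its unit could not be checked. The labels name no other agent and no genetic change in any library, and give no particle size. Nothing in them ties replicates to separate cultures, so the p-values given here reflect spread among libraries that may be purely technical.

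NF-kB is a family of dimeric transcription factors that IkB proteins hold inactive. Inflammatory receptors build ubiquitin chains that recruit the IkB kinase, the kinase marks IkB proteins for destruction, and the freed dimers switch on cytokine genes together with several of their own inhibitors. In lung epithelial cells this pathway is known for chemokine and cytokine production. Some of the 10 genes act on the dimer itself (the IkB proteins), others on the ubiquitin chains upstream (A20, its ABIN partners, CYLD and OTULIN).

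Total counts ran from 17541896 to 19119508 in PS-MP libraries and from 17013293 to 21316451 in control libraries. Levels are given as CPM, counts scaled to 1000000 per library, on which 3 counts make 0.141 to 0.176 CPM. Replicate 3 stood apart in both groups. Its log2 CPM correlated at 0.981 to 0.985 with its own group, against 0.992 between PS-MP replicates 1 and 2 and 0.994 between control replicates 1 and 2, so calls that change when both replicate 3 libraries are left out are given both ways. The epithelial keratins KRT8 and KRT18 were abundant, at 3803 and 2582 CPM in PS-MP libraries and 3502 and 2540 CPM in controls, whereas EPCAM was low (2.18 ± 0.373 CPM in PS-MP and 2.47 ± 0.339 CPM in control libraries, SD, n = 3 each). Of 8 leukocyte markers 6 were too low to test, and PTPRC, CD3E, CD68 and LYZ had at most 3 counts in any library. The summed level of the leukocyte list, nearly all of it CD14, was 25.2 to 38.7 CPM in PS-MP libraries and 20.3 to 25.1 CPM in controls. The fibroblast list summed to 10.1 to 14.2 CPM in PS-MP libraries and 6.83 to 9.05 CPM in controls. Its genes, as PS-MP and control means, were DCN (4.92 and 2.28 CPM), LUM (3.48 and 2.40), COL1A1 (2.76 and 2.42), PDGFRA (0.837 and 0.761), COL3A1 (0.206 and 0.370) and COL1A2 (0 throughout). By the edgeR test used below, 1 of its 4 tested genes was higher and 0 lower, against 4.91% and 4.65% of all tested genes. In the epithelial list 1 of 10 was higher and 0 lower, and in the leukocyte list 0 of 2 tested passed. The endothelial list summed to 0.695 to 1.01 CPM in PS-MP libraries and 0.275 to 1.06 CPM in controls. The part of such cells in the results below was not tested.

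Sequences around the start sites of these genes are shown first because a feedback gene of NF-kB is one that NF-kB itself can bind. RefSeq promoter windows of 300 bases (250 before to 50 after an annotated start site, GRCh38.p14) were found for 9 of the 10 genes, 14 windows in all. The NF-kB consensus of 10 letters, searched on both strands, was present in 9 of these 14 windows, from 7 of the 9 genes, and in 11.3% of all 35116 windows, from 13.3% of all genes with one. In the following 30-base stretches, written 5′ to 3′ on the gene's strand, capitals mark the consensus match, and the first 3 are from the genes on which the results turn.
TNFAIP3: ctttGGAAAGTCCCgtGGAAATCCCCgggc
TNIP1: ccagtctccgGGGACTTTCCcaggggtggg
NFKBIA: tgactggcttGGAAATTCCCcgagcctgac
NFKBIZ: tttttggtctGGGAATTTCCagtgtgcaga
BCL3: ccggctgcagGGGAAGTCCCggcgcccggc
NFKBIB: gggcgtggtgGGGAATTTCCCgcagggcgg
CYLD: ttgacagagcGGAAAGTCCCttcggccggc

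TNFAIP3 (chr6:137867188-137867217, plus strand) carried 2 matches, beginning 67 and 55 bases before the start site. TNIP1 (chr5:151081057-151081086, minus strand) carried 1 match beginning 42 bases before the start site at 151081034, and NFKBIA (chr14:35404811-35404840, minus strand) carried 1 beginning 81 bases before. The NFKBIZ stretch is chr3:101827757-101827786, BCL3 chr19:44748700-44748729, NFKBIB chr19:38899931-38899960 and CYLD chr16:50741887-50741916, each on the plus strand. NFKBIZ, NFKBIB and CYLD each had a further match that is not printed. TNIP2 and OTULIN had no consensus match in their windows. TNIP1, NFKBIB and CYLD each also had a window without a match, at the start sites 151065131, 38899666 and 50742156. For these genes the match thus depends on the start site taken. These are matches of letters and not measured binding sites.

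Exposed cells had more transcript of TNFAIP3, which encodes the ubiquitin-editing enzyme A20, and of TNIP1, which encodes the A20-binding protein ABIN1, while NFKBIA, which encodes IkB-alpha, differed between the groups by less than the spread between its replicates. TNFAIP3 was 2.26-fold higher (48.6 ± 2.33 CPM in PS-MP libraries and 21.5 ± 1.01 CPM in control libraries, SD, n = 3 each). TNIP1 was 1.45-fold higher (155 ± 8.61 CPM in PS-MP and 106.8 ± 1.602 CPM in control libraries). NFKBIA had 126 ± 21.7 CPM in PS-MP libraries and 122 ± 30.04 CPM in controls. In bulk RNA, more transcript per cell and a larger share of cells that express a gene cannot be told apart. All 10 genes passed the filter on low counts. By edgeR's quasi-likelihood test, adjusted over 15458 tested genes at 0.05, 2 of the 10 were higher and 0 lower in PS-MP cells, where 4.91% of all tested genes were higher and 4.65% lower (9.56% in either direction). At an unadjusted p under 0.05, 4 of the 10 were higher, against 12.6% of all tested genes, and 0 were lower, and DESeq2 and limma-voom each called 2 higher and 0 lower. In CPM every PS-MP library lay above every control library in 6 of the 10. This arrangement was found in 16.6% of tested genes, or in 32% counting either order. The median log2 fold change of the 10 was 0.28, beside 0.002 for all tested genes, and 9 of the 10 were positive.

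The share of all genes called higher varied with the setting. It was 4.66% with RLE scaling, 5% with upper-quartile scaling, 3.46% with total counts, 3.16% without a filter, 4.86% with a mean of at least 10 counts, 5.64% by DESeq2 and 4.55% by limma-voom. TNFAIP3 and TNIP1 were the 2 members called in each of these settings. The share was 2.15% when replicate number was blocked, 2.36%, 2.49% and 3.36% without control replicate 1, 2 or 3, and 2.22% and 2.26% without PS-MP replicate 1 or 2. In these settings too, TNFAIP3 and TNIP1 were the 2 members called. It was 5.62% without PS-MP replicate 3, where 3 members were called, and 13.5% without both replicate 3 libraries, where 4 were. With total counts 535 genes were higher and 861 lower, against 759 and 719 with TMM scaling, and the median of all genes shifted to -0.06.

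**Figure D1:**
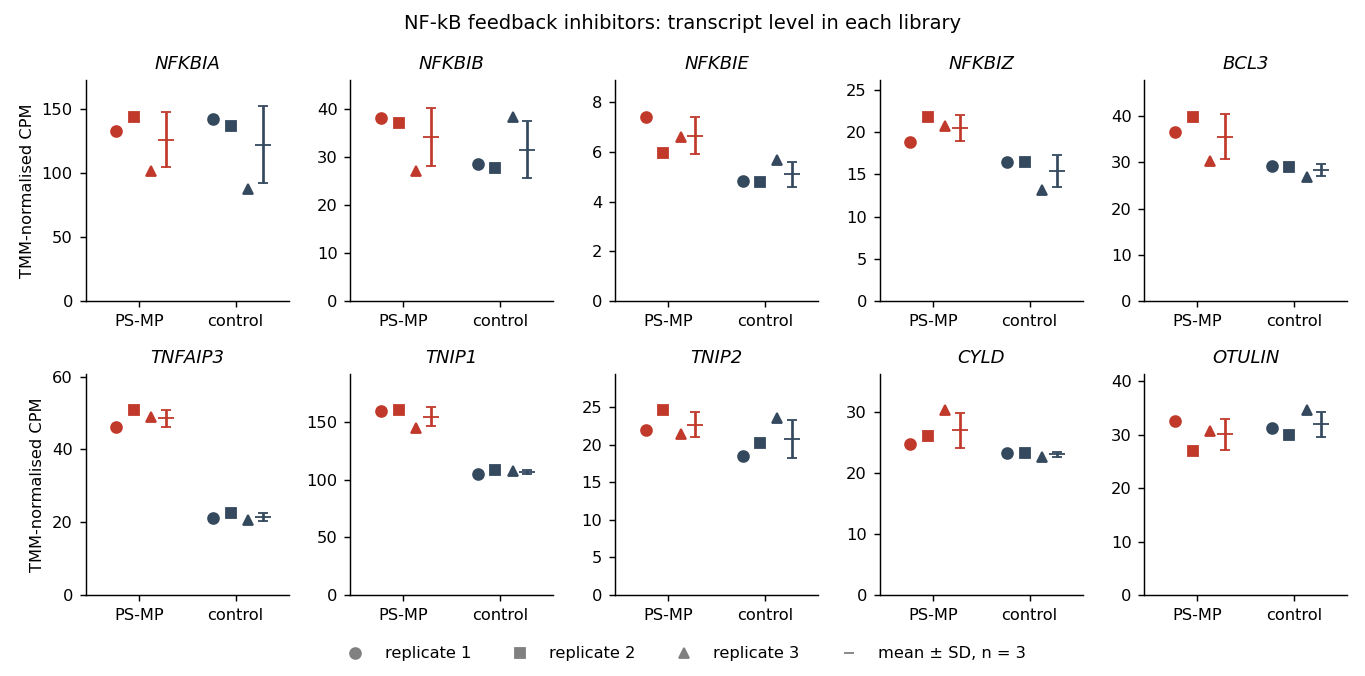
TMM-normalised CPM (vertical axis, from 0) of the 10 genes in each library, PS-MP left and control right, with replicates as circle, square and triangle and the mean ± SD of 3 libraries beside them. TNFAIP3 and TNIP1 separate widely, while NFKBIA and NFKBIB overlap and their replicate 3 values lie away from the other replicates.

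Among the classical IkB proteins, which mask the dimers in the cytoplasm, none was called. NFKBIA (ENSG00000100906, chromosome 14, 35401079 to 35404749) is the best-known NF-kB feedback gene. It had 132, 144 and 102 CPM in PS-MP replicates 1 to 3, against 142, 136 and 87.5 CPM in control replicates 1 to 3. The groups overlapped throughout, and replicate 3 was the lowest library of each group. On the log2 scale NFKBIA in replicate 3 differed from the mean of replicates 1 and 2 by -0.44 in PS-MP cells and -0.67 in controls, more than the 0.05 that separated the groups. Its log2 fold change was 0.05 ± 0.18 (SE), with a 95% interval from -0.36 to 0.45 and an adjusted p of 0.904. The interval allows a fold between 0.781 and 1.37, so a smaller change in either direction was not detectable here. The direction was negative with total counts as the only scaling (-0.016), without both replicate 3 libraries (-0.014), and when control replicate 3 (-0.15) or PS-MP replicate 2 (-0.06) was left out.

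NFKBIA, like NFKBIB, NFKBIZ, BCL3 and CYLD, carries the motif and did not pass the test. The 250 bases before its start site are shown whole. They are chr14:35404750-35404999, minus strand, GRCh38.p14, with the consensus match in capitals.
NFKBIA upstream: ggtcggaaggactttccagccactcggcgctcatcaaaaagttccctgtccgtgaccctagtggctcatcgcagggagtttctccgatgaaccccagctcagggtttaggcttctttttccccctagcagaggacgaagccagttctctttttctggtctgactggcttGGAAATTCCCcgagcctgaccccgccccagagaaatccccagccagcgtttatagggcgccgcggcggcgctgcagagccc

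NFKBIB (ENSG00000104825, chromosome 19, 38899700 to 38908893) encodes IkB-beta, a slower-acting IkB. It had 38.2, 37.2 and 27.2 CPM in PS-MP replicates 1 to 3, against 28.6, 27.7 and 38.4 CPM in control replicates 1 to 3. Replicates 1 and 2 were higher in PS-MP cells, and replicate 3 had the opposite order. With all libraries its log2 fold change was 0.11 ± 0.16 (SE, adjusted p = 0.728), and without both replicate 3 libraries it was 0.42 (adjusted p = 0.0031), a setting in which 13.5% of tested genes were called higher. NFKBIB overlaps the first bases of SIRT2 on the other strand, sharing 40 exon bases in GENCODE 29. SIRT2, a deacetylase gene, rose (54.6 ± 9.27 CPM in PS-MP libraries and 34.4 ± 4.399 CPM in controls, log2 fold change 0.67, adjusted p = 0.0162). SIRT2 was no longer called when control replicate 3 or when replicate 1 or 2 of PS-MP was left out (highest adjusted p 0.0819). The library kit keeps strand, but the strand setting of the counting is not given in the sources used here, so reads in the shared bases cannot be assigned to either gene.

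NFKBIE (ENSG00000146232, chromosome 6, 44258166 to 44265788) encodes IkB-epsilon, and it was the member with the fewest counts. It had 7.41, 5.94 and 6.58 CPM in PS-MP libraries, against 4.83, 4.80 and 5.68 CPM in control libraries. Every PS-MP value exceeded every control value in CPM, by a small margin at the ends. The log2 fold change of 0.38 ± 0.17 (SE) did not pass (adjusted p = 0.215, interval from -0.0058 to 0.76).

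The nuclear IkB proteins work differently, since IkB-zeta and BCL3 bind NF-kB dimers on DNA and can activate or repress targets. Neither gene was called, although both had groups that did not overlap in CPM. NFKBIZ (ENSG00000144802, chromosome 3, 101827991 to 101861022) encodes IkB-zeta, needed for IL6 induction in mouse cells. It had 18.8, 21.8 and 20.7 CPM in PS-MP libraries, against 16.5, 16.4 and 13.1 CPM in controls. Its log2 fold change was 0.41 ± 0.14 (SE, adjusted p = 0.0862, unadjusted p = 0.0111), and the adjusted p was between 0.0585 and 0.241 over 15 alternatives. The NFKBIZ span overlaps NXPE3 on the same strand with 0 shared exon bases in GENCODE 29, and NXPE3 had 94.2 ± 9.42 CPM in PS-MP libraries and 76.0 ± 2.17 CPM in controls (log2 fold change 0.31, adjusted p = 0.0926). NXPE3 was called without both replicate 3 libraries (0.33, adjusted p = 0.0132).

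BCL3 (ENSG00000069399, chromosome 19, 44747705 to 44760044) had 36.6, 39.9 and 30.3 CPM in PS-MP replicates 1 to 3, against 29.3, 29.03 and 26.9 CPM in controls. PS-MP replicate 3 stayed close to the controls. The log2 fold change was 0.33 ± 0.12 (SE, adjusted p = 0.134, unadjusted p = 0.0232). BCL3 passed without PS-MP replicate 3 (log2 fold change 0.43, adjusted p = 0.0279) and without both replicate 3 libraries (0.39, adjusted p = 0.00567). In the last setting 4 of the 10 genes were higher, namely TNFAIP3, TNIP1, BCL3 and NFKBIB.

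**Figure D2:**
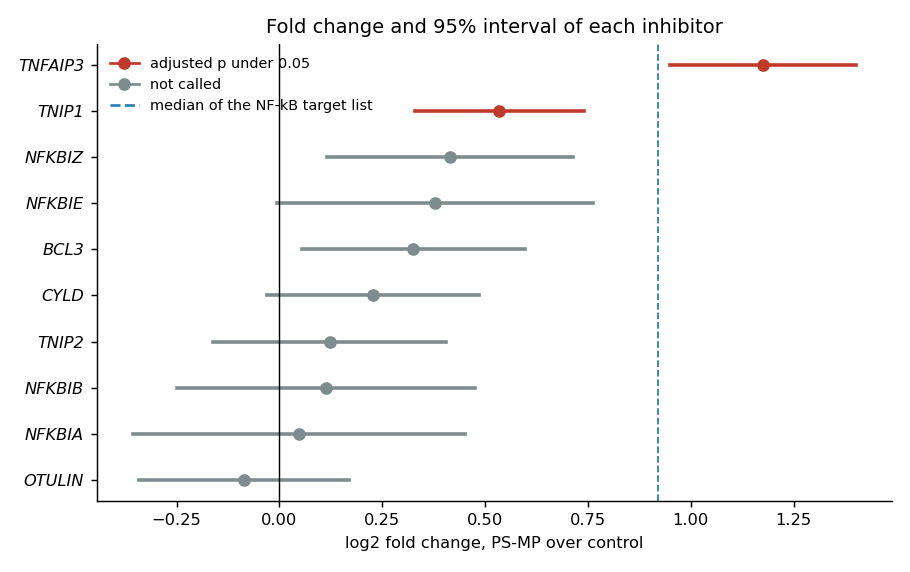
Log2 fold change, PS-MP over control (horizontal axis), with its 95% interval for each gene, red where the adjusted p is under 0.05 and grey otherwise. The dashed line is the median of the NF-kB target list (0.92), which the interval of TNFAIP3 exceeds and the other 9 intervals do not reach. That list was chosen with earlier results of these data known, and some of its genes passed the filter only through the PS-MP group. The line is drawn without an interval of its own.

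The regulators of ubiquitin chains held both genes that rose. TNFAIP3 (ENSG00000118503, chromosome 6, 137867214 to 137883314) encodes A20, which dismantles ubiquitin signals downstream of TNF, interleukin-1 and Toll-like receptors. It had 46.1, 50.7 and 48.9 CPM in PS-MP libraries, against 21.1, 22.6 and 20.7 CPM in control libraries. The 3 PS-MP values were close to each other and the lowest of them was above the highest control by about the level of a control library. The log2 fold change was 1.18 ± 0.10 (SE, adjusted p = 0.000107), with an interval from 0.95 to 1.40, and 98.7% of all tested genes had a lower one. It stayed called in all 15 alternatives (log2 fold change 1.11 to 1.21, highest adjusted p 0.00314). The antisense RNA WAKMAR2 shares 95 exon bases with TNFAIP3, and it had 9, 10 and 8 counts in PS-MP libraries against 9, 10 and 6 in controls (named after its counts were seen).

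TNIP1 (ENSG00000145901, chromosome 5, 151029945 to 151093577) encodes ABIN1, a ubiquitin-binding protein that works with A20. It had 159, 160.0 and 145 CPM in PS-MP libraries, against 105, 108 and 107 CPM in controls. The controls lay within a few CPM of each other, and PS-MP replicate 3 was the lowest of its group. The log2 fold change was 0.53 ± 0.09 (SE, adjusted p = 0.00469), and it was called in all 15 alternatives with 0.47 to 0.58 and an adjusted p of at most 0.0389. TNIP2 (ENSG00000168884, chromosome 4, 2741648 to 2756342) encodes the related ABIN2. It had 21.9, 24.5 and 21.4 CPM in PS-MP libraries, against 18.5, 20.2 and 23.5 CPM in controls, and the groups overlapped through control replicate 3. Its log2 fold change of 0.12 ± 0.13 (SE) did not pass (adjusted p = 0.605).

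CYLD and OTULIN are deubiquitinases, CYLD cutting several kinds of ubiquitin chain and OTULIN only linear ones. CYLD (ENSG00000083799, chromosome 16, 50742050 to 50801935) had 24.7, 26.0 and 30.2 CPM in PS-MP libraries, against 23.2, 23.3 and 22.6 CPM in controls. All PS-MP values were above the controls in CPM, yet the change of 0.23 ± 0.12 (log2, SE) did not pass (adjusted p = 0.264). OTULIN (ENSG00000154124, chromosome 5, 14664664 to 14699850) had 32.5, 27.0 and 30.7 CPM in PS-MP libraries, against 31.2, 30.03 and 34.5 CPM in controls. It was the only member with a negative log2 fold change (-0.09 ± 0.12 SE, adjusted p = 0.698), and its interval ran from -0.34 to 0.17.

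**Figure D3:**
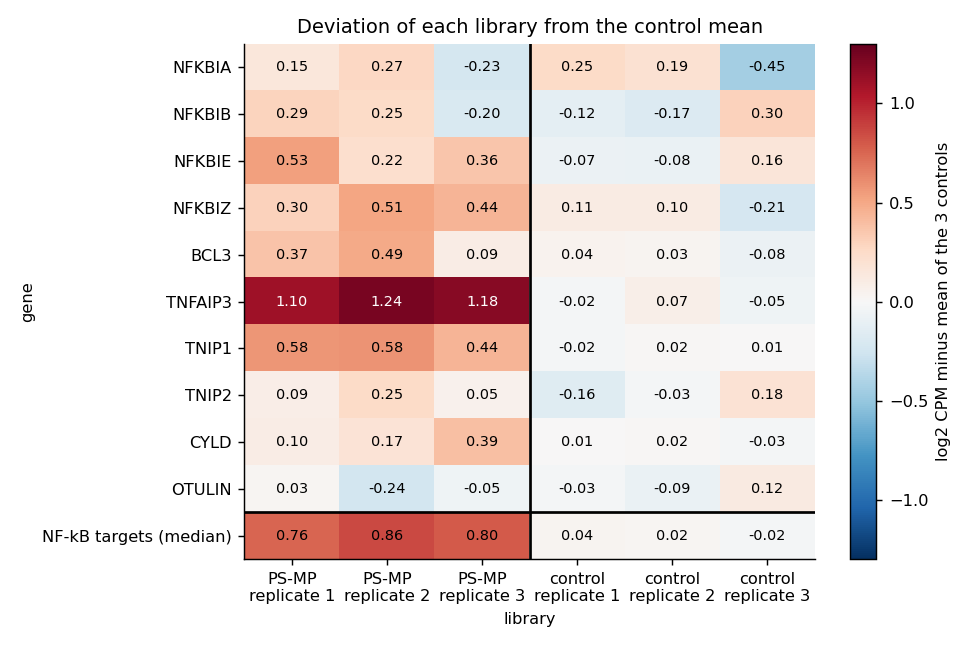
Log2 CPM of each gene in each library minus the mean of the 3 controls (colour and printed value), PS-MP libraries left and control libraries right, with the median over 56 tested NF-kB target genes in the last row. TNFAIP3 exceeds that mean by 1.10 to 1.24 in PS-MP libraries, while NFKBIA is below it in replicate 3 of both groups.

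Because the comparison asks which inhibitors moved with the NF-kB targets and which did not, each gene was also set against NFKBIA inside each library, where scaling between libraries cancels. TNFAIP3 minus NFKBIA was -1.52, -1.504 and -1.06 in PS-MP libraries, against -2.74, -2.59 and -2.07 in controls, on the log2 CPM scale. The PS-MP values all lay above the control values, and the mean difference was 1.11 (exact permutation test, two-sided, p = 0.1, adjusted p = 0.72 over 9 pairs). With 3 libraries a group, 0.1 is the smallest p this test can give. TNIP1 minus NFKBIA was 0.27, 0.15 and 0.51 in PS-MP libraries, against -0.44, -0.34 and 0.29 in controls. These overlapped through control replicate 3 (mean difference 0.47, exact permutation p = 0.3). In that library NFKBIA had 87.5 CPM, against 142 and 136 in control replicates 1 and 2, while TNIP1 had 107, against 105 and 108. The groups overlapped for the other 7 genes as well, and their mean differences lay between -0.15 and 0.35. NFKBIA was singled out for its low change, so these differences describe the data.

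Levels of different genes were compared as TPM, a length-scaled share of all transcripts, with exon lengths from GENCODE 29. NFKBIA was the most abundant of the 10 in every library, at 131 ± 18.2 TPM in PS-MP libraries and 136 ± 28.4 TPM in controls. TNIP1 came next in every library, 65.8 ± 2.31 TPM in PS-MP libraries and 49.0 ± 3.46 TPM in controls, followed by NFKBIB at 36.2 ± 5.61 TPM in PS-MP libraries and 36.3 ± 8.61 TPM in controls. In controls BCL3 (23.3 ± 0.806 TPM) and TNIP2 (20.6 ± 3.64 TPM) overlapped, and TNFAIP3 (11.3 ± 0.824 TPM) stood below TNIP2 and overlapped OTULIN (9.87 ± 1.17 TPM). In PS-MP libraries TNFAIP3 reached 23.7 ± 1.02 TPM, above TNIP2 (20.8 ± 0.712 TPM) and overlapping BCL3 (27.0 ± 2.75 TPM). NFKBIZ (8.54 ± 0.565 TPM in PS-MP libraries and 6.89 ± 0.632 TPM in controls) lay below OTULIN in controls and overlapped it in PS-MP libraries, where OTULIN had 8.63 ± 1.08 TPM. The lowest levels were those of NFKBIE (6.36 ± 0.861 TPM in PS-MP and 5.27 ± 0.780 TPM in control) and CYLD (5.15 ± 0.710 TPM in PS-MP and 4.73 ± 0.232 TPM in control). NFKBIE and CYLD overlapped in both groups. In TPM the PS-MP and control libraries of NFKBIE, BCL3 and CYLD overlapped, although they did not in CPM. The 2 measures differ in their scaling between libraries, since TPM carry no TMM factor, and a gene's exon length is the same in every library. The mean of NFKBIA was higher in PS-MP libraries in CPM (126 against 122) and higher in controls in TPM. For NFKBIE, BCL3 and CYLD the lowest PS-MP values were 5.44, 23.9 and 4.73 TPM, and the highest control values 6.15, 24.1 and 4.88 TPM. NFKBIA made up 74.3% to 76.8% of the summed TPM of the 3 classical IkB genes in PS-MP libraries and 80.9%, 80.7% and 66.3% in control replicates 1 to 3.

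**Figure D4:**
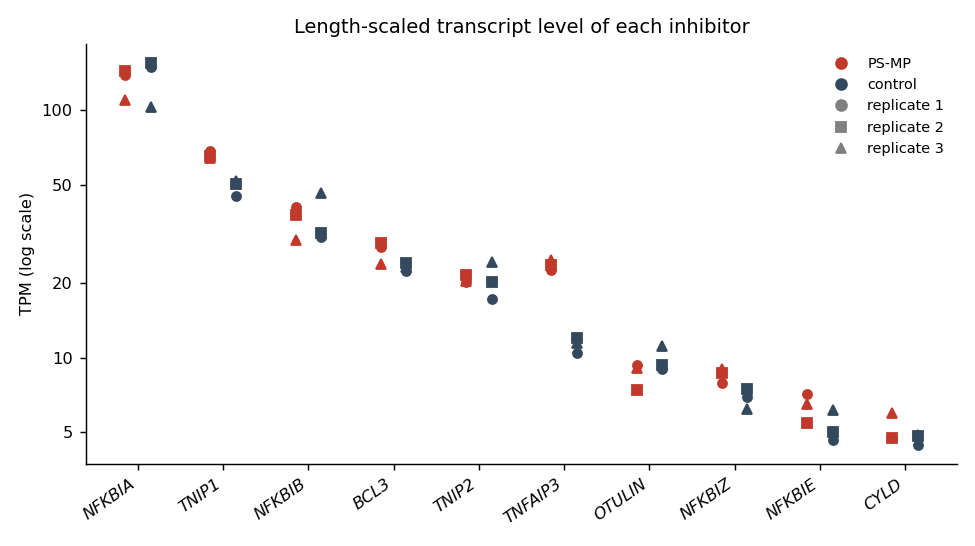
TPM (log axis) of the 10 genes in each library, ordered by control mean, PS-MP left of control for each gene, with replicates as circle, square and triangle. NFKBIA is highest in every library, and TNFAIP3 lies above TNIP2 in PS-MP libraries and below it in controls.

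A list of 63 NF-kB target genes without the 10 members moved more widely. Of its 56 tested genes 36 (64.3%) rose and 0 fell, against 4.91% and 4.65% of all tested genes. The median log2 fold change of the list was 0.92. The list was chosen with earlier results of these data known. At an unadjusted p under 0.05 the counts were 41 and 0, by DESeq2 33 and 0, and by limma-voom 35 and 0. The shares of all tested genes that were higher were 12.6%, 5.64% and 4.55% in that order. Risers such as CXCL10, CXCL11 and IL1A had at most 0.37 CPM in any control library. They passed the filter on low counts only through the PS-MP group. The share and the median of the list thus include genes that could enter only as risers. Without that filter 35 of all 63 targets were higher, against 3.16% of all genes then tested. The inflammatory cytokine IL6 was 8.67-fold higher (4.92 ± 0.474 CPM in PS-MP and 0.562 ± 0.0229 CPM in control libraries), and SOD2, the mitochondrial superoxide dismutase, was 3.38-fold higher (667 ± 83.4 CPM in PS-MP and 197 ± 26.9 CPM in control). The neutrophil chemokine CXCL8 (log2 fold change 1.54, adjusted p = 0.000195) and the adhesion molecule ICAM1 (1.41, adjusted p = 0.0032) rose as well. By library the list median, taken relative to the control mean, was 0.76, 0.86 and 0.80 (log2) in PS-MP replicates 1 to 3, so replicate 3 lay between the others. The log2 fold change of TNFAIP3 exceeded that of 35 of the 56, that of TNIP1 18 and that of NFKBIA 5. The count of risers was 42 without both replicate 3 libraries and 25 to 36 with any 1 library left out.

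The target with the profile most like TNFAIP3 over the 6 libraries was IL6 (Pearson r of log2 CPM 0.996), followed by CXCL1 (0.991) and LCN2 (0.99). CXCL1 had 192, 226 and 186 CPM in PS-MP libraries, against 89.4, 84.3 and 81.2 CPM in controls. For NFKBIA the nearest were SELE (0.823), CCL2 (0.71) and BIRC2 (0.653). The chemokine gene CCL2 had 66.0, 74.1 and 36.7 CPM in PS-MP libraries, against 31.7, 33.2 and 15.8 CPM in controls, so it was low in replicate 3 of both groups as NFKBIA was. CCL2 rose in PS-MP cells (log2 fold change 1.13, adjusted p = 0.0335), a call lost in 7 of 15 alternatives (highest adjusted p 0.37). SELE had at most 1.91 CPM and did not pass (adjusted p = 0.212), except without both replicate 3 libraries (log2 fold change 0.92, adjusted p = 0.0415). The apoptosis inhibitor BIRC2 did not pass (0.0014, adjusted p = 0.996). These likenesses are descriptive, rest on 6 points that share their groups, and carry no test.

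In the other lists of the pathway the edgeR counts at an adjusted p under 0.05 can be read against the 4.91% of all tested genes that were higher and the 4.65% that were lower. At an unadjusted p under 0.05 the share of all tested genes that were higher was 12.6%, and by DESeq2 it was 5.64%. The share lower at an unadjusted p under 0.05 is not given here. Of 11 tested repressors outside the 10, 3 (27.3%) rose and 0 fell (median 0.24), with 5 higher and 1 lower at an unadjusted p under 0.05 and 4 higher and 0 lower by DESeq2. These were IRAK3, a brake on interleukin-1 and Toll-like receptor signalling (3.68 ± 0.558 CPM in PS-MP and 1.65 ± 0.162 CPM in control, log2 fold change 1.16, adjusted p = 0.00906), ZFP36, which destabilises cytokine mRNAs (0.53, adjusted p = 0.0101), and TOLLIP (0.48, adjusted p = 0.0279, named after its value was seen). IRAK3 lost its call without PS-MP replicate 1 (adjusted p = 0.0542), ZFP36 in 4 alternatives and TOLLIP in 7 (highest adjusted p 0.0666 and 0.131). NFKBID, a further nuclear IkB gene, had 1.56, 2.13 and 1.59 CPM in PS-MP libraries, against 2.12, 2.88 and 4.63 CPM in controls, and did not pass (log2 fold change -0.87, adjusted p = 0.11, named after its value was seen).

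Among 13 partners of A20, CYLD and OTULIN, 2 (15.4%) rose and 0 fell (median 0.03), with 4 higher and 1 lower at an unadjusted p under 0.05 and 1 higher and 0 lower by DESeq2, which gave TNIP3 no adjusted p. TNIP3, the inducible ABIN gene of the same family as TNIP1 and TNIP2, rose at a very low level, with 14, 15 and 19 counts in PS-MP libraries against 3, 5 and 4 in controls (log2 fold change 2.13, adjusted p = 0.00772). TNIP3 passed the filter on low counts only through the PS-MP group. The 15.4% thus includes a gene that could enter only as a riser. RBCK1, a subunit of the linear ubiquitin ligase that OTULIN and A20 counter, had 151, 160 and 98.2 CPM in PS-MP libraries, against 86.1, 91.1 and 93.1 CPM in controls. Its log2 fold change was 0.59 (adjusted p = 0.0412), PS-MP replicate 3 lay near the controls, and the call was lost in 8 of 15 alternatives (highest adjusted p 0.17).

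The IkB kinase and NF-kB subunit list had 1 riser among 13 genes (7.69%) and 0 that fell (median -0.06), with 1 in each direction at an unadjusted p under 0.05 and 1 higher and 0 lower by DESeq2. It was RELB, the subunit that pairs with p52 (14.7 ± 1.51 CPM in PS-MP and 9.70 ± 1.0497 CPM in control, log2 fold change 0.60, adjusted p = 0.0272), called no longer in 5 of 15 alternatives (highest adjusted p 0.12). RELB, REL, NFKB1 and NFKB2 are also in the NF-kB target list, so RELB is counted among its risers too. RELA, NFKB1 and NFKB2 did not pass (log2 fold changes 0.10, 0.15 and 0.15, adjusted p = 0.6, 0.462 and 0.43), although NFKB2 did without both replicate 3 libraries (0.26, adjusted p = 0.0267). In the list of 10 genes for the ligase and proteins that destroy IkB, 0 rose and 0 fell (median -0.06), with 0 at an unadjusted p under 0.05 and 0 by DESeq2 or limma-voom, and the log2 fold changes lay between -0.22 and 0.26. Protein levels, phosphorylation and nuclear entry of NF-kB were not measured, and a transcript level does not give the amount of IkB-alpha protein.

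**Figure D5:**
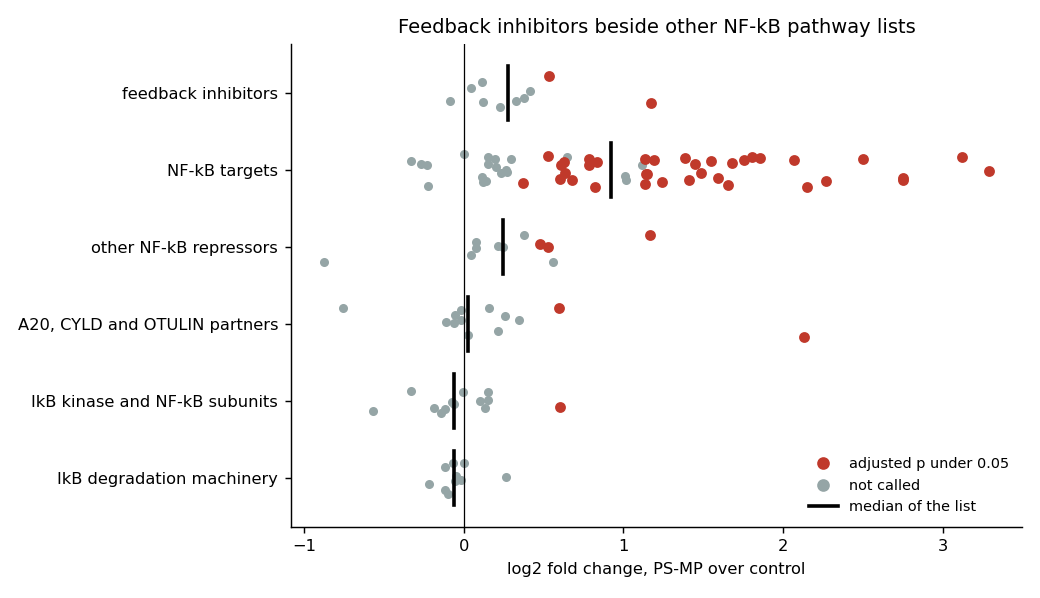
Log2 fold change, PS-MP over control (horizontal axis), of each tested gene in 6 lists, red where the adjusted p is under 0.05, with the median of each list as a black bar. The target list reaches 3.29 with a median of 0.92, while the 10 feedback inhibitors lie between -0.09 and 1.18 and the kinase and degradation lists are centred near 0.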

How the data were processed

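The deposited values are whole-number counts per Ensembl gene, 1 column per library. Per the submitters' processing notes, fastp, HISAT2, StringTie, RSEM and DESeq2 were used with GRCh38, with no version or role. The counter, its strand setting and the annotation release are not given in the sources used here. Testing used edgeR 4.0.16 under R 4.3.3. Genes passing filterByExpr (15458) were scaled by TMM and tested by the robust quasi-likelihood F test, PS-MP over control, two-sided, with Benjamini-Hochberg adjustment over all tested genes at 0.05. Every adjusted p comes from this test unless another is named. CPM are TMM-normalised, and intervals are 95% Wald intervals of the quasi-likelihood fit. Floors of 3 counts cover counting error only. TPM used GENCODE 29 exon lengths, available for 92.9% of gene IDs and at least 99.8% of counts, and carry no TMM factor. Promoter windows are from RefSeq. The procedure was also run on simulated counts. These were drawn independently for each library with no replicate structure, so the run does not cover the spread seen in replicate 3. Named genes are all members, genes fixed by name (CXCL8, IL6, SOD2, ICAM1 and the NF-kB subunits), up to 2 called genes per other list, by smallest adjusted p, expressed neighbours within 5 kb (10 counts or more on average) and the 3 targets most like NFKBIA and TNFAIP3. The members, lists and rules were chosen with earlier results of these data known. Alternatives were DESeq2 1.42.0, limma-voom (limma 3.58.1), other scalings (RLE, upper quartile, total counts), other filters (none, or 10 counts on average), the replicate number as a block, and libraries left out. Exact permutation tests used SciPy 1.17.1.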

Additional observations from a re-analysis of the deposited data

How the results depend on the processing

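TNFAIP3 and TNIP1 were called higher in all 15 alternatives, and 0 of the 10 genes was called lower in any. Without both replicate 3 libraries 4 of the 10 and 42 targets were higher, 2 targets were lower (IL15 and REL), and 4129 genes were called in all, so more genes pass in general under that setting. With 1 library left out, the members that were higher numbered 2 to 3, the targets 25 to 36 higher and 0 to 1 lower (IL15), and all called genes 771 to 1696. Whether equal replicate numbers mark paired samples is not given in the labels. Deviations from the group means correlated at -0.09, -0.11 and -0.18 between same-numbered libraries, and none correlated best with its own number. Deviations within a group of 3 sum to 0, so these values cannot decide whether the samples were paired. With the replicate number as a block 750 genes were called, among them 28 targets and 2 of the 10. NFKBIA turned negative with total counts as the only scaling (-0.016) and without both replicate 3 libraries (-0.014), and ran from -0.15 to 0.18 with 1 library left out. Alternatives for genes outside the 10 were added after the data were seen. BIRC2, near 0 throughout, turned to -0.0052 with RLE scaling, -0.065 with total counts, -0.0041 without a filter, -0.0053 by DESeq2 and -0.0013 by limma-voom, and ran from -0.052 to 0.075 with 1 library left out. DESeq2 gave TNIP3 no adjusted p. The cause of these shifts was not tested. Depth limits low genes such as TNIP3 and SELE, with 3 to 19 and 4 to 33 counts per library.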

Other observations

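Replicate 3 differed from replicates 1 and 2 in opposite directions in the 2 groups for some of the 10 genes. On the log2 CPM scale NFKBIB in replicate 3 lay -0.47 from the mean of the other replicates in PS-MP cells and 0.45 in controls, and TNIP2 lay -0.11 and 0.28. NFKBIA lay -0.44 and -0.67, the same direction in each group, and TNFAIP3 lay within 0.08 of the other replicates in each group (0.015 and -0.08). Of 50 target genes with a RefSeq promoter window, 58% had the NF-kB consensus in at least 1 window, beside 13.3% of all 27305 genes with a window. The matches in the windows of NFKBIA, NFKBIB, NFKBIZ, BCL3 and CYLD did not go with a called change when all libraries were used. SLC35B2, which starts within 5 kb of NFKBIE, had 64.3 ± 4.52 CPM in PS-MP libraries and 54.8 ± 4.74 CPM in controls (SD, n = 3 each, log2 fold change 0.23, adjusted p = 0.223), and it was called without both replicate 3 libraries (0.34, adjusted p = 0.00884).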
